A study of Mus musculus with 2 samples.

Results

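The red cell membrane and skeleton genes described here are 7 genes: Slc4a1 and Rhag, which encode proteins that cross the membrane; Ank1, Epb42, Epb41 and Add2, whose proteins tie the membrane to the layer beneath it; and Sptb, a chain of that layer. They were picked by their symbols from the 32285 genes of the count matrices, and each symbol matched 1 row. Their UMIs (unique molecular identifiers, each counting 1 captured RNA molecule) were read in every barcode of 2 single-cell libraries, and made up 3654 of 1050933 non-globin UMIs in replicate 1 (0.348%) and 3218 of 827384 in replicate 2 (0.389%). The libraries held cells of wild-type mouse blood after burn/tenotomy, an injury that joins a skin burn with a cut tendon and is used as a model of bone formation in soft tissue. The blood had been passed through the iChip, a microfluidic sorter, and the cells barcoded on the 10x Chromium platform. Both libraries have the same genotype and treatment, so there is no uninjured group, and each comparison is between classes of barcodes within them. The labels do not say that the replicates came from separate mice, and the spread between these 2 libraries, on which p-values in part rest, may be technical.

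The mature red cell has no nucleus and is held in shape by a net of spectrin under its membrane. Ankyrin (Ank1) fastens this net to band 3 (Slc4a1), the exchanger of chloride and bicarbonate, and protein 4.2 (Epb42) strengthens that joint; the Rh-associated glycoprotein (Rhag) sits in the same assembly. Protein 4.1 (Epb41) and adducin (Add2) join spectrin to actin at the corners of the net, and human red cell shape disorders such as spherocytosis and elliptocytosis come from defects in several of these genes. Young red cells, the reticulocytes, still carry messenger RNA, mostly of globin.

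Barcodes were sorted into classes by the share of their UMIs that came from 4 globin genes (Hba-a1, Hba-a2, Hbb-bs and Hbb-bt), which are not among the 7. The non-red class (globin under 10% and at most 20% mitochondrial UMIs) had 86 barcodes in replicate 1 and 47 in replicate 2. A mitochondria-rich class (globin under 10% and more than 20% mitochondrial UMIs) had 436 and 325. The red classes held 9 and 89 barcodes at 10 to 40% globin, 304 and 226 at 40 to 90%, and 173 and 162 at 90% or more. The 10 to 40% class was left out of the tests because replicate 1 had too few barcodes there. The libraries held 3967318 and 3329292 UMIs in 1008 and 849 barcodes, of which 73.5% and 75.1% were globin, and they shared 0 barcodes. A level below is the UMIs of a gene per 1000000 non-globin UMIs of a class (CPM), given for replicate 1 and then replicate 2. These levels are not divided by transcript length, and so are not ranked between genes.

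The classes were checked against marker lists. Of 6 erythroid markers other than globin, all 6 were detected in the 40 to 90% and 90% or more classes, with summed levels of 53.5 and 339 in non-red barcodes, 38984 and 37435 at 40 to 90% globin, and 64465 and 67416 at 90% or more. The 16 leukocyte markers summed to at most 104 CPM in either of these red classes. The 3 nuclear RNAs Malat1, Neat1 and Meg3 summed to 40286 and 28610 in non-red barcodes and to 22.9 and 8.89 at 90% or more. At 40 to 90% globin they stood at 502 (131 UMIs) in replicate 1 and 10.3 (2 UMIs) in replicate 2. The source of the nuclear RNA in that class of replicate 1 was not tested. The non-red class is a mixture and differed between the libraries: leukocyte markers summed to 23451 in replicate 1 and 1581 in replicate 2, and 8 mesenchymal markers to 910 and 3711. One ribosomal RNA-like transcript, Gm42418, took 11.3% and 18.8% of the non-globin UMIs in non-red barcodes, 51.1% and 49.3% at 40 to 90% globin, and 36.8% and 33.5% at 90% or more. Its part in the levels below was not tested directly. Some results are also given with Gm42418 and mitochondrial UMIs taken out of the total.

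The promoters of 5 of the 7 genes were found in the RefSeq table (build GRCm38.p6), with 7 start sites in all. They were searched on both strands for the letters GATA with A or T just before them and A or G just after them (4 forms of the GATA hexamer, which overlap no other motif searched). GATA factors bind such letters, and one of them, GATA1, is the master regulator of red cell genes. A match lay within 250 bases before 4 of the 7 starts, against 26.5% of 32851 promoters. With 7 starts this count is a description only, and a match is not a shown binding site. The 4 promoters with a match are printed 5′ to 3′ on the gene's strand, with the hexamer in capitals, to show where it stands relative to the start. They are those of Epb42 (chr2:121036878-121037127, minus strand, 226 bases before the start), Epb41 at the first of its 3 starts (chr4:132075314-132075563, minus strand, 184 bases before), Add2 (chr6:86028431-86028680, plus strand, 234 bases before) and Rhag (chr17:40810899-40811148, plus strand, 31 bases before).
Epb42: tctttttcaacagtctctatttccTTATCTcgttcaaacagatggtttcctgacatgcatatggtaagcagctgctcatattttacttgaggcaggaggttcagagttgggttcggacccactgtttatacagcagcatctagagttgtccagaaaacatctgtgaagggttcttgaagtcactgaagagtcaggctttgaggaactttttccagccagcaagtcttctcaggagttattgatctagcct
Epb41: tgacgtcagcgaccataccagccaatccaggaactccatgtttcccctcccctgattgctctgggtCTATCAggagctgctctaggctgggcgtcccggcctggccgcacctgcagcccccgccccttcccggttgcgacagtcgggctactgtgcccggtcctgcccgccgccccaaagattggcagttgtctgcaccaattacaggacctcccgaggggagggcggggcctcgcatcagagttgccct
Add2: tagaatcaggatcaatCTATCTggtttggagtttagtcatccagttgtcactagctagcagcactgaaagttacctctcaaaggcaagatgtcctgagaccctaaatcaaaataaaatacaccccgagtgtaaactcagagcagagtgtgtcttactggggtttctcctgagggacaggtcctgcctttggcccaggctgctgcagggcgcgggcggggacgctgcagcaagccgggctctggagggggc
Rhag: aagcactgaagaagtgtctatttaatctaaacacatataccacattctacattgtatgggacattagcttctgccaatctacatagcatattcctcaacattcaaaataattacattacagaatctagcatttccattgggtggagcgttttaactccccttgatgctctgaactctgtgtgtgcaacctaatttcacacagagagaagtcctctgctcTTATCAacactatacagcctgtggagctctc
These letters were not in the windows of Sptb or of the other Epb41 starts. Promoters of Slc4a1 and Ank1 are not shown. Distances are to RefSeq starts, while the gene positions below are from GENCODE M21, and the 2 sources differ for some starts. By the GENCODE positions most of the Epb42 window lies inside the gene, and its hexamer stands closer to that start than 226 bases. The windows of Epb41 and Rhag reach into their genes by fewer bases.

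Together the 7 genes were far higher in red than in non-red barcodes in both libraries. Their summed level was 255 and 231 in non-red barcodes, 9435 and 9691 at 40 to 90% globin, and 7999 and 7990 at 90% or more. The libraries' values did not overlap between any pair of these 3 classes. Over both libraries the sum was 32.4 times as high at 90% or more globin as in non-red barcodes (95% interval 26.4 to 40.3), and 38.7 times as high at 40 to 90% (31.6 to 48.0). Intervals here are exact, from the UMI counts, and cover counting error only. In mitochondria-rich barcodes the sum was 80.1 and 69.6, where 83.2% and 88.1% of the non-globin UMIs were mitochondrial. With mitochondrial and Gm42418 UMIs taken out of the total it was 573 and 716 there and 312 and 301 in non-red barcodes, so the order of these classes turned.

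**Figure D1:**
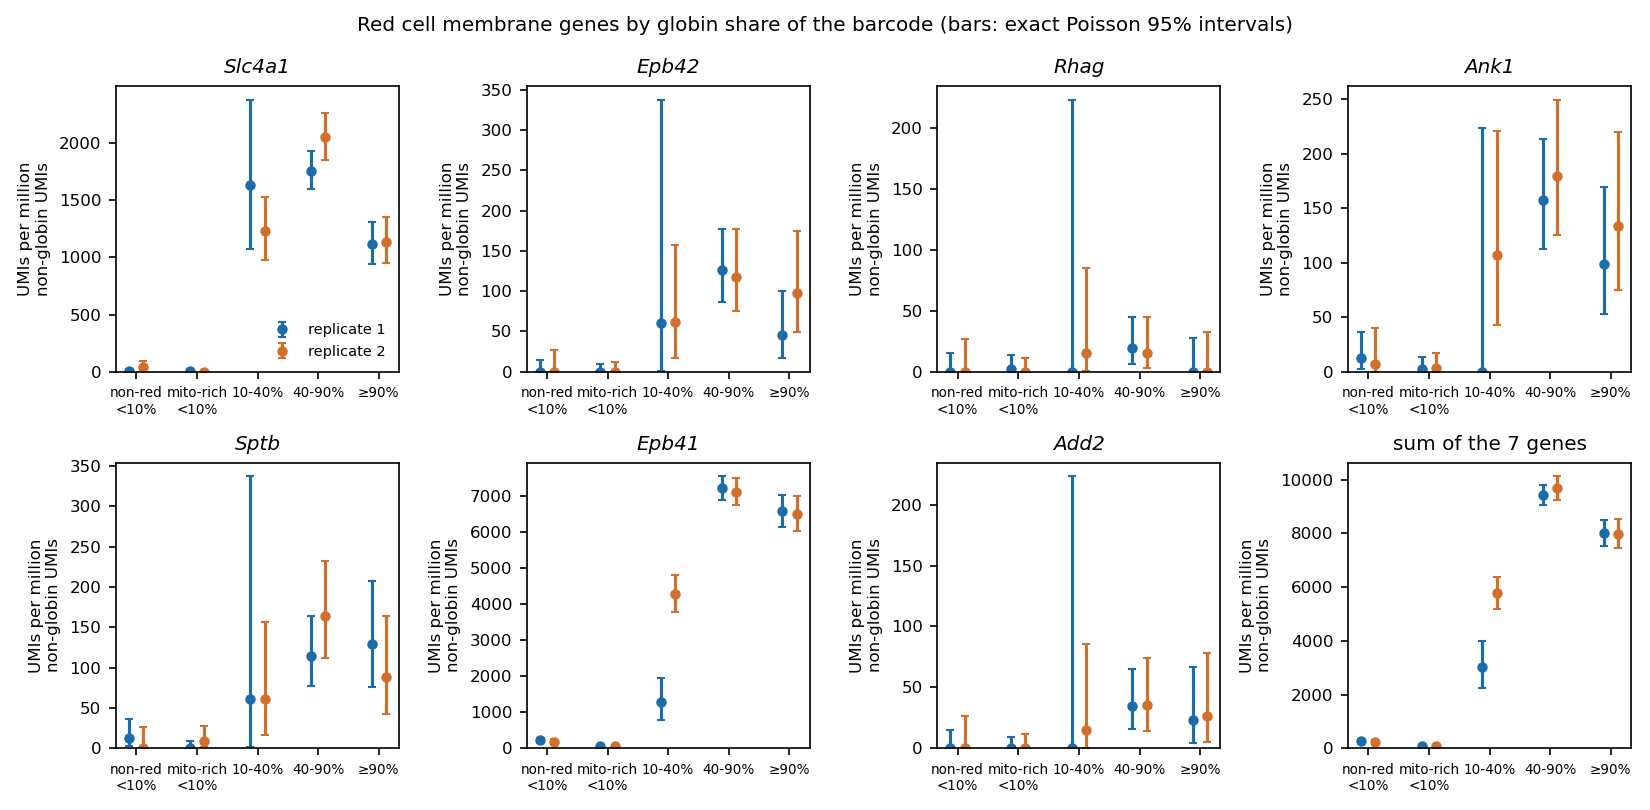
Level of each gene, and of all 7 together, in CPM of non-globin UMIs (vertical axes, linear and each to its own scale), by class of barcode from low to high globin share (horizontal axes); points are the 2 libraries and bars are exact Poisson 95% intervals. Slc4a1 and Epb41 stand at 1113 to 2052 and 6506 to 7223 at 40% globin and above, far over both low-globin classes, while Rhag shows 0 UMIs at 90% or more.

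Of the membrane-spanning genes, Slc4a1 (band 3; chr11:102348824-102366203, minus strand, GRCm38) had 1250 UMIs. Its level was 4.12 and 43.3 in non-red barcodes, 1760 and 2052 at 40 to 90% globin, and 1113 and 1138 at 90% or more. Every red value was above both non-red values, and those at 90% or more were below those at 40 to 90% in both libraries. The non-red values rest on 1 UMI in replicate 1 and 6 in replicate 2, so the ratio is poorly fixed: 61.3 for 90% or more over non-red (95% interval 29.3 to 154) and 103 for 40 to 90% over non-red (49.6 to 256). The 6 UMIs of replicate 2 lay in 5 barcodes with no class of markers, which had 4.77 to 8.68% globin, close under the limit of the class. The 1 UMI of replicate 1 lay in a barcode with platelet markers and 4.56% globin.

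Rhag, which carries ammonia across the membrane, lies at chr17:40811126-40840754 on the plus strand and had only 10 UMIs. Of these, 5 and 3 were in barcodes at 40 to 90% globin, a level of 19.2 and 15.4, and 0 at 90% or more in both libraries. Non-red barcodes had 0 as well. At 40 to 90% globin the level of Rhag was 2.20 times the non-red floor, which is 3 UMIs over both libraries. This ratio leaves out the counting error of its own UMIs and is not a lower limit. With 0 UMIs at 90% or more, a count of 0 allows a level of up to 12.3 over both libraries there, so its absence from that class is not shown. Rhag did not pass the filter on low counts and was not tested.

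Of the linkers, Epb41 (protein 4.1; chr4:131923413-132075321, minus strand) was the most counted of the 7, with 5294 UMIs or 77.0% of their total. Its level was 226 and 180 in non-red barcodes, 7223 and 7126 at 40 to 90% globin, and 6588 and 6506 at 90% or more. The libraries lay close together in both red classes, and the 2 red classes did not overlap. Over both libraries it was 31.2 times as high at 90% or more as in non-red barcodes (95% interval 24.9 to 39.6) and 34.2 times as high at 40 to 90% (27.4 to 43.3).

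Epb41 was also the only one of the 7 with more than 6 UMIs in the non-red class of either library. In replicate 1, 41 of its 55 non-red UMIs were in 21 of the 54 barcodes with leukocyte markers, and 9 in 4 of the 5 with platelet markers. In replicate 2, 21 of 25 were in barcodes without a marker class. To set these UMIs beside RNA that red cells may leave free in the sample, they were divided by the globin UMIs of the same barcodes. Per 10000 globin UMIs, Epb41 had 1136 and 229 UMIs in non-red barcodes, 33.3 and 135 at 10 to 40% globin, 16.1 and 17.1 at 40 to 90%, and 4.96 and 4.39 at 90% or more. Slc4a1 had 20.7 and 55.0, 42.8 and 38.7, 3.93 and 4.93, and 0.839 and 0.768 in the same classes. The ratio to globin was highest in non-red barcodes for Epb41 in both libraries, and for Slc4a1 in replicate 2 only. Because the classes were cut by globin share, this ratio falls toward high globin largely by construction. Its order over the classes is a description only, and a part of free RNA was not tested.

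Ank1 (ankyrin; chr8:22974844-23150497, plus strand) had 117 UMIs. Its level was 12.3 and 7.22 in non-red barcodes (3 UMIs and 1), 157 and 180 at 40 to 90% globin, and 99.1 and 133 at 90% or more. The red classes did not overlap with non-red or, in these 2 libraries, with each other, but the counting interval of their ratio (0.689, 95% interval 0.430 to 1.08) includes 1. Against non-red barcodes Ank1 was 10.96 times as high at 90% or more (3.83 to 43.0) and 15.9 times at 40 to 90% (5.96 to 59.9).

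Epb42 (protein 4.2; chr2:121017891-121037072, minus strand), a relative of the transglutaminases without enzyme activity, had 78 UMIs. It had 0 UMIs in non-red barcodes, a level of 127 and 118 at 40 to 90% globin, and 45.8 and 97.8 at 90% or more. Its level was 8.87 times the non-red floor at 90% or more and 15.5 times at 40 to 90%. These ratios leave out the counting error of its own UMIs and are not lower limits. Both values at 90% or more were below those at 40 to 90%, with a ratio of 0.568 (95% interval 0.309 to 0.992).

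Add2 (beta-adducin; chr6:86028681-86124409, plus strand), which caps actin filaments, had 23 UMIs. Its level was 0 and 0 in non-red barcodes, 34.5 and 35.9 at 40 to 90% globin, and 22.9 and 26.7 at 90% or more, or 3 UMIs in each library there. Its level was 3.13 times the non-red floor at 90% or more and 4.46 times at 40 to 90%. With so few UMIs of its own, whose counting error is left out, these ratios are not lower limits. Add2 did not pass the filter and was not tested against the non-red class.

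Sptb (beta-spectrin; chr12:76580488-76710547, minus strand), the chain of the skeleton itself, had 100 UMIs. Its level was 12.3 and 0 in non-red barcodes (3 UMIs and 0), 115 and 164 at 40 to 90% globin, and 130 and 88.9 at 90% or more. The values of its 2 red classes overlapped. Sptb shares bases with Plekhg3 on the other strand, which had 45 UMIs; no source used here says whether counting used strand, so reads of the 2 genes may not be told apart.

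Sums per class and library were tested with edgeR's quasi-likelihood test, the library as a block and non-globin UMIs as library size, over 3132 genes and 4 classes. All 5 tested genes (Slc4a1, Epb42, Epb41, Ank1 and Sptb) were called higher at 90% or more globin than in non-red barcodes, at an adjusted p under 0.05 (edgeR, Benjamini-Hochberg over all 3132 genes). In that comparison 91.4% of all tested genes were called, 11% higher and 80.4% lower, with a median log2 fold change of -6.99 over all of them. At 40 to 90% globin against non-red, the same 5 of 5 were called higher, where 90% of all genes were called, 9% higher and 81% lower, with a median of -5.86. Only Epb41 reached the filter in non-red sums; the others passed it through the classes where they are high, so the count of 5 is a description and not support. The spread behind these p-values was shared across all genes, not estimated for each gene.

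The fold changes were large for each of the genes with UMIs in all 3 classes. At 90% or more globin against non-red, the edgeR log2 fold change was 5.82 for Slc4a1 (SE 0.63, adjusted p = 1.06e-18) and 5.002 for Epb41 (SE 0.42, adjusted p = 6.78e-30). It was 3.38 for Ank1 (SE 0.93, adjusted p = 0.000370) and 3.74 for Sptb (SE 0.98, adjusted p = 0.000211). For Epb42, which is at 0 in non-red barcodes, the adjusted p was 7.33e-05. At 40 to 90% globin the same test gave 6.57 for Slc4a1, 5.13 for Epb41, 3.92 for Ank1 and 4.06 for Sptb. The loss of either library kept all these signs, but the log2 value of Slc4a1 at 90% or more against non-red ran from 4.69 with replicate 2 alone to 7.92 with replicate 1 alone. With replicate 2 alone Sptb has 0 UMIs in non-red barcodes, and its fitted value (7.09) is no measure of size. Scaled by all UMIs, globin included, Ank1 and Sptb at 90% or more were not called and their signs turned, at -0.45 and -0.06. Under the same scaling edgeR also did not call Epb42 at 90% or more (adjusted p = 0.150), or Ank1 (adjusted p = 0.100) and Sptb (adjusted p = 0.0985) at 40 to 90%.

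Between the red classes no member passed the test: at 90% or more against 40 to 90% globin, edgeR called 0 of 5 at an adjusted p under 0.05 and 0 at an unadjusted p under 0.05, beside 0.575% of all genes called (0.287% higher and 0.287% lower). All 5 point estimates were below 0, beside a median log2 fold change of 0.0008 over all genes tested. They were -0.83 for Epb42 (SE 0.73), -0.75 for Slc4a1 (SE 0.43, unadjusted p = 0.0834), -0.54 for Ank1 (SE 0.66), -0.32 for Sptb (SE 0.68) and -0.13 for Epb41 (SE 0.35), with an adjusted p of 1 for each (edgeR). That of Sptb turned to 0.17 with replicate 1 alone. DESeq2 called 1 of the 5 lower, Epb41 (log2 fold change -0.56, adjusted p = 0.0430). Of the 792 genes to which DESeq2 gave an adjusted p there, it called 34 lower and 26 higher. The counts of Slc4a1 alone put its ratio at 0.597 (95% interval 0.519 to 0.684), with values of 0.633 in replicate 1 and 0.554 in replicate 2.

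The red barcodes were then divided into 7 finer classes by globin share, a division made after the levels above had been seen. Slc4a1 in replicate 1 was 2852 at 40 to 70% globin, 1451 at 70 to 80%, 1431 at 80 to 85%, 1502 at 85 to 90%, 1771 at 90 to 92%, 811 at 92 to 94% and 409 at 94% or more. In replicate 2 it was 2730, 2011, 1433, 1683, 2090, 1094 and 467 in the same classes. In both libraries the level was highest in the lowest class and lowest in the highest one; between 70 and 92% neighbouring classes had overlapping intervals. The 40 to 70% class of replicate 1 had 35 of its 157 Slc4a1 UMIs in 1 barcode, and its level without that barcode was 2327.

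Epb41 changed far less over the same range. In replicate 1 it was 6121, 7750, 7297, 7453, 7218, 6453 and 5619 from the lowest class to the highest, and in replicate 2 it was 7429, 7175, 7456, 6631, 8257, 5936 and 5842. The order of the lower classes differed between the libraries, and both were lowest at 94% or more. The fall was larger with Gm42418 and mitochondrial UMIs taken out of the total. Epb41 was then at 16722 and 19628 at 40 to 70% globin and at 9123 and 9066 at 94% or more. On the same total Slc4a1 went from 7790 and 7213 to 665 and 725. The balance of the 2 genes differed between the ends of the range: Slc4a1 made up 31.8% (95% interval 27.7 to 36.1) and 26.9% (23.4 to 30.6) of the UMIs of both genes at 40 to 70% globin, and 6.79% (3.44 to 11.8) and 7.41% (4.45 to 11.5) at 94% or more, by exact binomial intervals. Between 70 and 92% the share did not fall steadily: it was 15.8, 16.4, 16.8 and 19.7% in replicate 1. In replicate 2 it was 21.9, 16.1, 20.2 and 20.2%. This share does not depend on the total by which levels are divided. The 5 other genes together were at 727 and 579 at 40 to 70% globin and at 149 and 130 at 94% or more, where they rest on 4 and 5 UMIs.

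**Figure D2:**
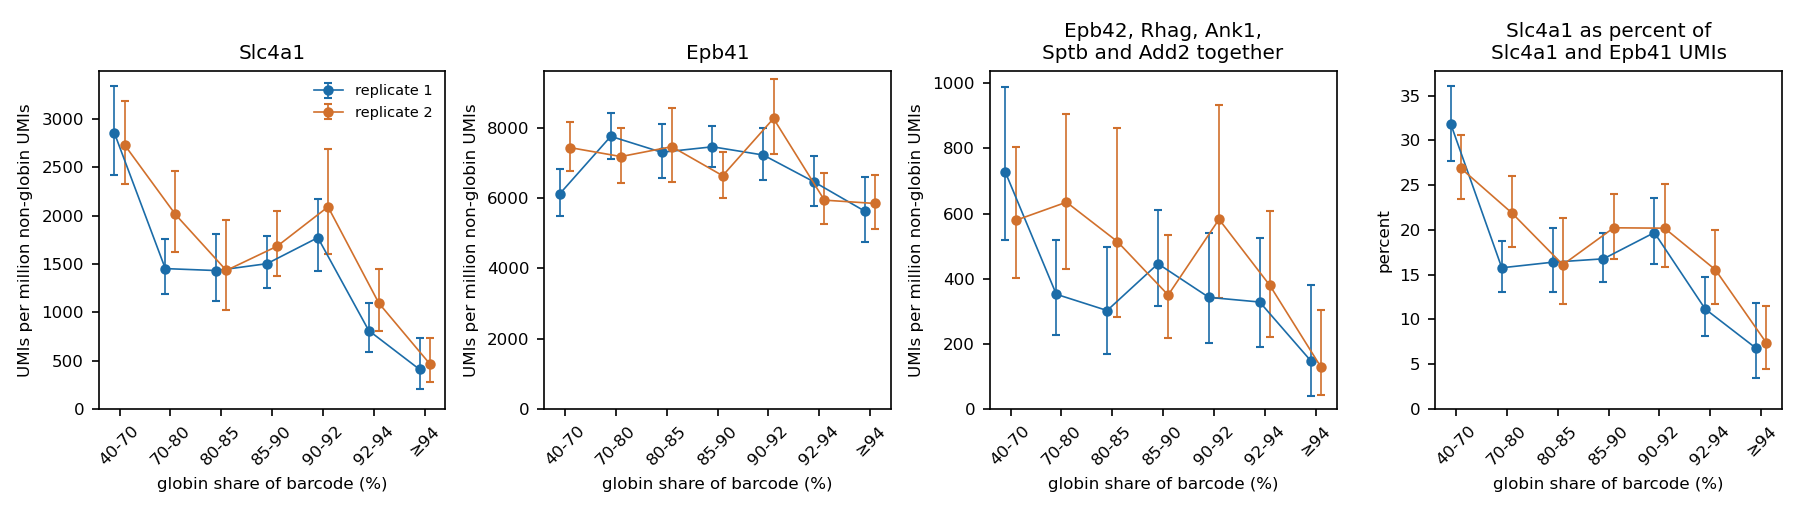
Level of Slc4a1, of Epb41 and of the other 5 genes together in CPM of non-globin UMIs, and the share of Slc4a1 among Slc4a1 and Epb41 UMIs in percent (vertical axes), over 7 classes of globin share in percent (horizontal axes); points are the 2 libraries and bars are exact 95% intervals. On this total Slc4a1 lies at 2852 and 2730 in the lowest class and at 409 and 467 in the highest, while Epb41 stays between 5619 and 8257.

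A linear trend over these 14 sums was fitted in edgeR with the library as a block (718 genes with at least 20 UMIs, 6 of the 7 genes among them; Rhag had too few). Slc4a1 fell by 0.41 on the log2 scale per 10 percentage points of globin (SE 0.09, adjusted p = 0.000664 by edgeR over all 718 genes), in a fit where 42.3% of genes were called, 8.08% lower and 34.3% higher. The slopes of Sptb (-0.38, SE 0.18, adjusted p = 0.0783), Epb42 (-0.35, SE 0.19, adjusted p = 0.135), Add2 (-0.20, SE 0.25, adjusted p = 0.533), Ank1 (-0.15, SE 0.14, adjusted p = 0.423) and Epb41 (-0.04, SE 0.05, adjusted p = 0.560) did not pass the same edgeR test. The median slope of all genes was 0.25, so all 6 lay below it. With Gm42418 and mitochondrial UMIs taken out of the total the median slope of all genes was 0.01, and 5 of the 6 genes were called lower, Add2 being the exception. In that setting 132 of all 718 genes were called lower and 140 higher. The call of Slc4a1 was lost without the 40 to 70% class (slope -0.47, adjusted p = 0.0767 by edgeR) and with red barcodes of at least 5000 UMIs alone (slope -0.24, adjusted p = 0.581 by edgeR). Depth with globin included moves with globin share: the median barcode had 2645 and 2032 UMIs at 40 to 70% globin and 10618 and 11020 at 94% or more. Its part in the slope was not tested beyond that. Non-globin depth went the other way: 50 and 64 barcodes held 55053 and 60436 non-globin UMIs at 40 to 70% globin. At 94% or more, 49 and 75 barcodes held 26875 and 38516. Among barcodes with more than 10000 UMIs, Slc4a1 was at 1253 and 1336 at 90% or more globin and at 2489 and 2354 at 40 to 90%, with no overlap between the classes. The values at 40 to 90% rest on only 18 and 20 barcodes (72 and 75 Slc4a1 UMIs), and those at 90% or more on 100 and 103.

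Single barcodes held few UMIs of these genes: the median was 5 and 4 of all 7 together at 90% or more globin, and 6.5 and 7 at 40 to 90%, with a highest value of 92. Slc4a1 was seen in 1.16% and 10.6% of non-red barcodes, in 53.9% and 60.2% at 40 to 90% globin, and in 38.7% and 32.1% at 90% or more. Median depths with globin included differ (1908 and 970 UMIs in non-red barcodes, 3516 and 3257 at 40 to 90%, and 10585 and 11126 at 90% or more). Median non-globin UMIs went the other way, at 1907.5 and 969, 766.5 and 777.5, and 678 and 627.5 in the same classes. Each barcode with at least 100 non-globin UMIs was therefore also thinned to 100. This left out 3 of 162 barcodes at 90% or more in replicate 2 and no others. A UMI of any of the 7 genes was then found in 2.33% and 14.9% of non-red barcodes, in 0.229% and 0.615% of mitochondria-rich ones, in 22.2% and 39.3% at 10 to 40% globin, in 55.9% and 52.2% at 40 to 90%, and in 48.0% and 56.0% at 90% or more. The 2 highest classes overlapped in this measure, and both stood above all others. Of the thinned barcodes, 8.09% and 7.55% at 90% or more and 12.8% and 13.3% at 40 to 90% had a Slc4a1 UMI.

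**Figure D3:**
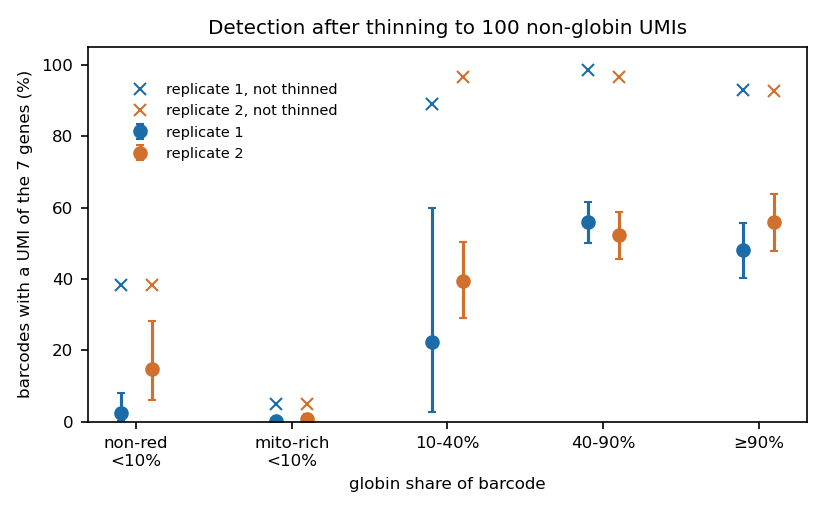
Share of barcodes in percent with at least 1 UMI of the 7 genes (vertical axis) by class from low to high globin share (horizontal axis), after thinning each barcode to 100 non-globin UMIs (filled points, exact binomial 95% intervals) and before it (crosses), for the 2 libraries. Thinned shares are 48.0 to 56.0% in the 2 classes of highest globin and under 15% in the non-red and mitochondria-rich classes.

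In levels of Slc4a1 and Epb41 the 10 to 40% class lay between the non-red class and the 40 to 90% class. There Slc4a1 was at 1635 and 1228, above its 1113 and 1138 at 90% or more, and Epb41 at 1272 and 4282. The replicate 1 values rest on 9 barcodes, 1 of which held 16 of the 27 Slc4a1 UMIs; without it the Slc4a1 level was 799. In replicate 2, with 89 barcodes of 892 median UMIs, Slc4a1 was seen in 50.6% of barcodes and Epb41 in 87.6%, and no barcode held more than 6 Slc4a1 UMIs.

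The family relatives that other cells use were low in red barcodes. Of 16 such relatives, 7 passed the filter, and all 7 were called lower in both red classes than in non-red barcodes, where 80.4% (90% or more) and 81% (40 to 90%) of all genes were also called lower. These relatives passed the filter through the low-globin classes, where they are high, so the count of 7 is a description and not support. In replicate 1 Epb41l3 went the other way at 40 to 90% globin, at 7.67 (2 UMIs) against 4.12 (1 UMI) in non-red barcodes. Sptbn1, the beta-spectrin of non-erythroid cells, had a level of 0 and 0 at 90% or more globin and 477 and 693 in non-red barcodes. Its alpha-spectrin partner Sptan1 was at 0 and 0 against 218 and 202, and the bicarbonate carrier Slc4a4 at 0 and 0 against 169 and 664, in the same classes. The 4.1-type genes Epb41l2 (0 and 0 against 193 and 93.9) and Epb41l3 (0 and 0 against 4.12 and 72.2), the carrier Slc4a7 (0 and 0 against 177 and 86.6) and the transglutaminase Tgm2 (0 and 0 against 49.4 and 224) did likewise. Ank2 and Slc4a2 had too few UMIs to be tested and were at 0 in both red classes, and Rhbg and Rhcg, the relatives of Rhag, had 0 UMIs in all barcodes. The other adducins went the same way as the relatives: Add3 was at 0 and 0 at 90% or more and 601 and 404 in non-red barcodes, and Add1 at 30.5 and 0 against 189 and 188, both called lower by edgeR.

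**Figure D4:**
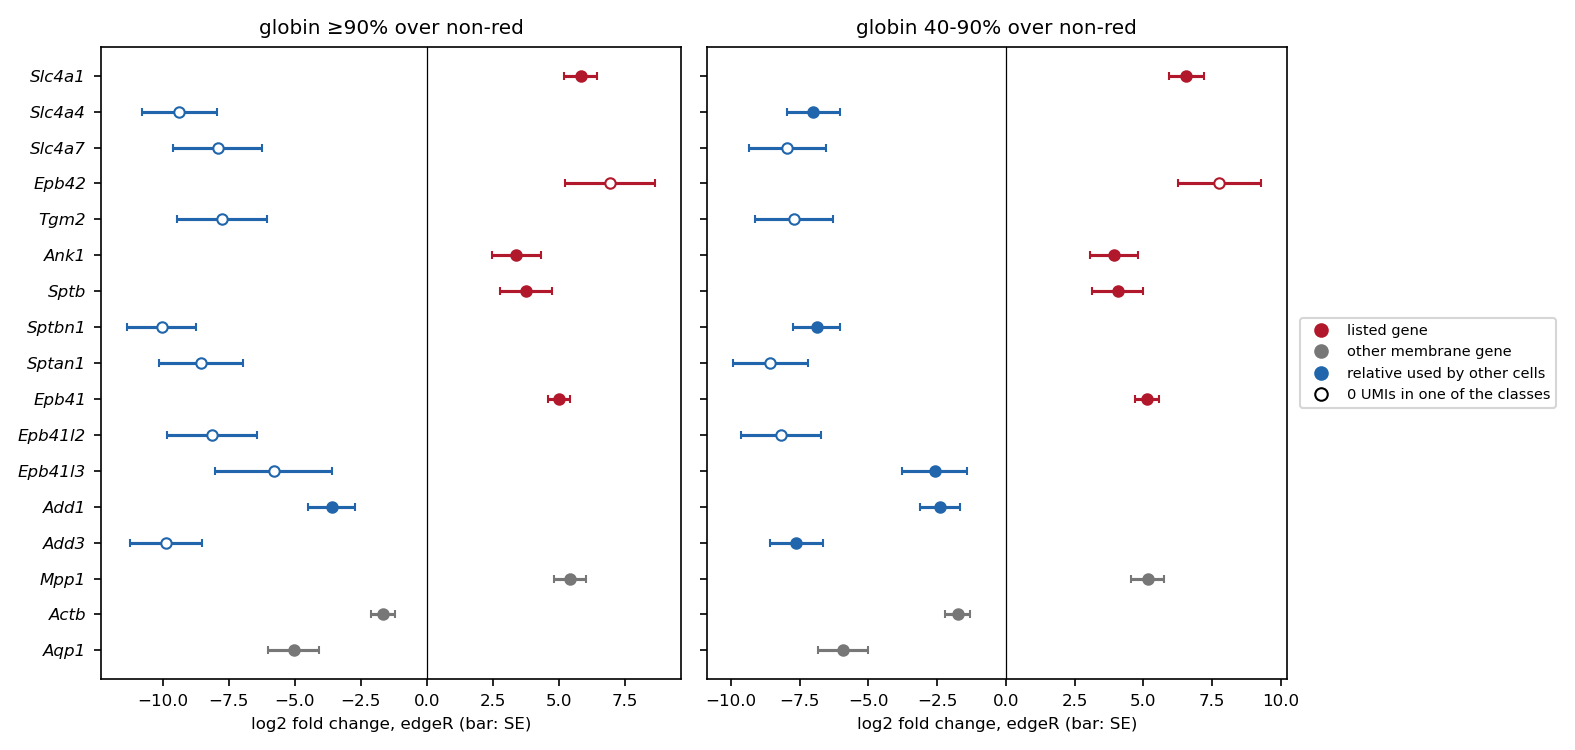
Log2 fold change with its SE (horizontal axes; edgeR, library as a block) of the 5 tested listed genes, of relatives used by other cells and of further red cell membrane genes, for 90% or more globin over non-red barcodes (left) and 40 to 90% over non-red (right); open symbols mark genes with 0 UMIs in one of the classes, whose fitted value depends on the prior count and is no measure of size. The 5 listed genes and Mpp1 lie right of 0 in both panels, and the relatives, Actb and Aqp1 left of it.

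A wider list of 40 red cell membrane genes had 24 that passed the filter. At 90% or more globin against non-red, 10 were called higher, 9 lower and 5 neither by edgeR, with a median log2 fold change of 0.27 beside -6.99 over every gene tested. At 40 to 90% the counts were 11, 9 and 4. Mpp1, the p55 protein that binds protein 4.1, was at 1197 and 1324 at 90% or more and 28.8 and 28.9 in non-red barcodes. Adipor1, an adiponectin receptor, was at 2425 and 2115 against 74.1 and 79.4, Tspo2, a cholesterol-handling membrane protein of erythroid cells, at 587 and 400.0 against 0 and 0, and basigin (Bsg) at 305 and 373 against 49.4 and 130. All 4 of these were called higher. Also among the 12 most counted genes of the list, Actb (580 and 436 against 1391 and 1870), Add3, Cd47 (76.3 and 62.2 against 255 and 238) and the water channel Aqp1 (15.3 and 0 against 128 and 570) were called lower, and Tpm1 (168 and 124 against 152 and 108) was not called. No gene of the wider list was called between the red classes, and 1, Tspo2, had an unadjusted p under 0.05 (edgeR, unadjusted p = 0.0366).

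In the trend over the 7 finer classes, 4 of 18 tested genes of the wider list rose with globin share (among them Adipor1, Bsg and Tspo2) and 2 fell (Add1 and Tfrc, the transferrin receptor that reticulocytes shed), beside 34.3% of all genes called higher and 8.08% lower. Totals without Gm42418 and mitochondrial UMIs, TMM and DESeq2 each called 1 gene of the list higher (Tspo2) and 4 lower (Stom, Tmod1, Add1 and Tfrc). Over all 718, 718 and 1395 genes they called 140, 130 and 79 higher and 132, 146 and 122 lower. Tspo2 rose by 0.83 per 10 percentage points on the log2 scale (SE 0.14) and Adipor1 by 0.36 (SE 0.06), both past the edgeR threshold. For comparison, Alas2, which starts haem synthesis, rose by 0.47 (SE 0.04, adjusted p = 1.64e-09) and Fech, which ends it, by 0.30 (SE 0.05, adjusted p = 3.72e-05), again by edgeR. These slopes stand beside the median of 0.25 over all genes: with Gm42418 and mitochondrial UMIs taken out of the total, Tspo2 (0.58) and Alas2 (0.23) were still called by edgeR, while Adipor1 (0.12), Bsg (0.23) and Fech (0.06) were not. Tspo2 was not called with red barcodes of at least 5000 UMIs alone (slope 0.50, adjusted p = 0.141 by edgeR), nor was Alas2 with DESeq2 (slope 0.17, adjusted p = 0.0520). Slc4a1 and Alas2 had slopes of opposite sign among the same barcodes under both totals. Of the haem genes with most UMIs, Alas2, Fech and Urod were all called higher in both red classes than in non-red barcodes. Of the erythroid transcription factors, Lmo2 was called higher in both and Nfe2 and Zfpm1, with 30 UMIs each, were not tested.

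Over the 8 sums of the fit, the genes whose log2 level was most like the summed 7 were Becn1 (Pearson r = 0.998), Slc25a37, Trim10, Slc25a51, Cdc25b, Mpp1, Ucp2 and Pabpc1 (0.996), among 2297 genes with at least 50 UMIs. These 8 points come from 2 libraries and share their totals, and they differ mostly between red and other barcodes. Slc25a37, the mitochondrial iron importer mitoferrin, was at 5780 and 5928 at 90% or more globin and 65.9 and 93.9 in non-red barcodes. Trim10, an erythroid protein with a RING domain, was at 442 and 444 against 8.23 and 14.4 in the same classes, and like Slc4a1 had higher values at 40 to 90% globin (579 and 600.2).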

How the data were processed

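Single-cell RNA was counted in 2 libraries of 1 group, replicate 1 and replicate 2. The authors deposited UMI counts, whole numbers without normalization, for each gene in each barcode. Cell Ranger 7.1.0, Seurat 5 and the build mm10 appear in the submitters' processing notes; the calling of barcodes and any removal of doublets are not described there. All barcodes were kept, and no doublet caller was run.

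UMIs were summed per library and globin class. Levels are per 1000000 non-globin UMIs, with exact Poisson intervals; shares have exact binomial (Clopper-Pearson) 95% intervals; a floor is 3 UMIs over both libraries. Genes passing filterByExpr were tested with edgeR 4.0.16 in R 4.3.3: quasi-likelihood test, library as block, no TMM, 8 sums, 3 residual degrees of freedom, Benjamini-Hochberg over all genes, threshold 0.05. Classes with fewer than 10 barcodes in a library stayed out. The bands lie within each library, so the block pairs sums of the same library. Both fits were first run on simulated counts with known changes, as a check of the code only. The simulated counts had no library effect and a smaller spread than the main fit found. The check therefore gives no error rate for these data. DESeq2 1.42.0, other scalings, filters, class limits and single libraries were tried as alternatives. Non-red barcodes were given a marker class if 1 list had most UMIs and at least 5. Gene positions are from GENCODE M21 and promoters from RefSeq (GRCm38.p6).

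The genes, lists and tests were chosen with earlier results of these data known. All 7 genes are named; from the wider list the 12 with most UMIs, from relatives those with at least 20 UMIs, from haem and transcription factor lists the 3 with most UMIs, and 8 genes by likeness of log2(level + 10). Some genes of the wider list are not reported here. Other genes were named after their values were seen.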

Additional observations from a re-analysis of the deposited data

How the results depend on the processing

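Directions of the 5 tested genes against non-red barcodes were kept with TMM, DESeq2, totals without Gm42418 and mitochondrial UMIs, no filter, no replicate block (5 called higher in both comparisons), filtered barcodes, limits of 5, 30 and 85%, 3 classes in the fit, and red barcodes of at least 5000 UMIs. Without the block, 324 of all 3132 genes were called higher at 90% or more globin and 272 at 40 to 90%. Scaling by all UMIs, globin included, moved the median over all genes to -8.46 on the log2 scale at 90% or more globin against non-red. It called 2 of the 7 genes higher there and 3 at 40 to 90%. Of all 5358 genes tested, that scaling called 61 higher and 5124 lower at 90% or more, and 95 and 5038 at 40 to 90%. It turned Ank1 (-0.45) and Sptb (-0.059) at 90% or more, and called 5 genes of the wider list higher and 17 lower there, 7 and 15 at 40 to 90%. Between the red classes it called 1 of the 7 genes lower (Slc4a1, -2.24), beside 48 lower and 0 higher of all 5358 tested. DESeq2 also called 1 lower (Epb41), beside 34 lower and 26 higher of 792. Sptb turned to 0.11 between the red classes with at least 5000 UMIs.

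In the trend, totals without Gm42418 and mitochondrial UMIs, TMM and DESeq2 each called 5 of the 7 genes lower. Over all genes they called 132 of 718, 146 of 718 and 122 of 1395 lower. At least 5000 UMIs, or no 40 to 70% class, called 0 of the 7, beside 16 of 591 and 27 of 657 genes lower. With at least 5000 UMIs the slopes of Ank1 (0.38) and Epb41 (0.15) turned. The cause of these changes was not tested. The replicate block changed no call of the 7 genes.

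The mean summed level was 243 in non-red barcodes, 9563 at 40 to 90% and 7995 at 90% or more. In the same order it was 306, 20951 and 12748 with totals without Gm42418 and mitochondrial UMIs, 144, 9998 and 8312 with filtered barcodes (in non-red 144 ± 147, SD, n = 2, so the libraries stood far apart), 39.7, 2389 and 1448 without Epb41, and 519, 9244 and 7624 as a mean over barcodes. Per 1000000 of all UMIs it was 1800 at 40 to 90% and 533 at 90% or more; limits of 5, 30 and 85% gave 163 ± 120 (SD, n = 2) in non-red and 8388 in the highest class. Mean shares of barcodes with a UMI were 38.3%, 97.6% and 92.8% without thinning, and 34.8% and 31.1% in the red classes thinned to 50. A fit with leukocyte-marked non-red barcodes alone was not run, since replicate 2 had 5. Rhag, Add2 and non-red levels are limited by depth.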
